A study of Mus musculus with 18 samples.

Results

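The first day of differentiation was followed in wild-type (WT) muscle stem cells (MuSCs), the resident progenitors from which adult skeletal muscle is repaired. RNA-seq libraries of WT cells at day 1 were compared with those at day 0, 2 libraries each, so that 4 of the 18 libraries of the series carried the comparison. Of 20612 genes kept from the deposited table, the 11890 with at least 1 RPKM in at least 2 libraries were tested. RPKM scales the reads of a gene to the length of its transcript and to the size of the library, so levels can be set beside each other between genes.

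Both WT groups came from mice 4 months of age, labelled C57BL/6 and semi-cloned, that is made by injecting haploid embryonic stem cells into oocytes in place of sperm. Day 0 cells were MuSCs expanded on collagen in T cell conditional medium, and day 1 cells had spent 1 day in differentiation medium, so the day and the medium changed together and their effects cannot be told apart. Per the study the haploid line carried deletions of H19-DMR and IG-DMR, which control 2 imprinted clusters, and every genotype, WT included, descends from it. A further 2 genotypes serve for comparison, with 2 libraries at each of days 0 and 1. DSM-TKO (TKO) carries 1 mutated copy each of Mbnl1, Dmpk and Six5. DSMD-QKO (QKO) has in addition a heterozygous Dmwd mutation. The sources used here do not say whether the 2 libraries of a group came from separate animals or cultures, and the p-values rest on library spread that could be technical only.

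An expanded MuSC, or myoblast, divides under the control of the transcription factors Pax7, Myf5 and Myod1. When mitogens are withdrawn it leaves the cell cycle for good, switches on myogenin (Myog) and the Mef2 factors, fuses with its neighbours through the membrane proteins myomaker and myomerger, and fills with sarcomeres, the repeated units of actin, myosin and titin filaments that contract. Id proteins hold myoblasts back by binding the partners that Myod1 and Myog need to reach DNA.

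The labelled cell type was checked against its defining genes. At day 0 Myod1 stood at 552 and 552 RPKM, Itga7, the laminin-binding integrin by which MuSCs are sorted, at 133 and 190.0 RPKM and Pax7 at 27.6 and 11.7 RPKM. Cd34, another sorting marker, was near the limit of detection, at 0.492 and 0.145 RPKM at day 0 and 0.110 and 0.0353 RPKM at day 1. Of the markers listed for other cell types, 8 of 14 for fibroblasts, 7 of 8 for endothelium, 10 of 14 for immune cells, 4 of 7 for adipocytes and 7 of 8 for Schwann and neural cells were under 1 RPKM in all 4 WT libraries, among them Pdgfra, Dcn and Lum, Pecam1 and Cdh5, Ptprc and Csf1r, Adipoq, and Sox10. The fibroblast list summed to 107 and 104 RPKM at day 0 and 38.3 and 39.6 RPKM at day 1, of which Ly6a (Sca1), a surface protein used to sort such cells away from MuSCs, held 56.1 and 59.5 RPKM at day 0 and 0.388 and 0.891 RPKM at day 1. The Schwann and neural list summed to 115 and 105 RPKM at day 0 and 7.49 and 8.03 RPKM at day 1, nearly all of it Tubb3, a tubulin (113 and 103 RPKM at day 0 and 6.48 and 6.93 RPKM at day 1). The 10 pericyte and smooth muscle markers summed to 343 and 438 RPKM at day 0 and 2328 and 2309 RPKM at day 1, nearly all of it Acta2, while Myh11 and Cnn1 stayed under 1 RPKM. Of the fibroblast list, Ly6a, Col3a1, Pdgfrb, Twist2, Tcf4 and Postn reached 1 RPKM in at least 1 of the 4 WT libraries. At day 1 nearly all of that list's sum was in members other than Ly6a. The part of other cells in any result was not tested beyond these values.

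Depth was 60.7 and 59.8 M reads at day 0 and 37.7 and 53.6 M at day 1, as recovered from the steps of the RPKM values, and 1 read on a 1 kb transcript was worth 0.0165 to 0.0265 RPKM. The day 1 libraries were close to each other (Pearson r = 0.994 across genes, which are not independent replicates) and the day 0 libraries less so (r = 0.961). Replicate 2 of day 0 lay above replicate 1 by a median of 0.68 on the log2 scale in the 10% shortest transcripts and below it in the 10% longest (median difference -0.60), a slope absent between the day 1 libraries (-0.02 and 0.04). The WT day 0 libraries also stood apart in their Hox genes, which mark position along the body and are usually kept in culture. Summed over the Hoxb cluster they held 29.7 and 46.4 RPKM against 0 in both WT day 1 libraries, and over the Hoxc cluster 1.97 and 2.76 RPKM against 52.6 and 57.8 RPKM. In the 14 libraries other than these, those of day 2 included, the Hoxb sum was at most 0.96 RPKM and the Hoxc sum at least 40.1 RPKM. Change over 1 day and a difference between the cultures sampled at day 0 and day 1 therefore cannot be told apart in WT, and no value can be given without the WT day 0 libraries. The changes of TKO and QKO, whose libraries are separate and show no such switch, are given beside those of WT for that reason.

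Many of the genes tested differed between WT day 0 and day 1. The fit of all 18 libraries called 66.6% of them and that of the 4 libraries compared 48.1%. Of 11890 genes tested, 2429 (20.4%) were called higher and 5486 (46.1%) lower at day 1 at an adjusted p under 0.05 (limma on log2(RPKM + 1), Benjamini-Hochberg over all genes). With at least a 4-fold change as a further condition, 544 genes (4.58%) were higher and 858 (7.22%) lower. The 2 libraries of a day did not overlap those of the other, in the direction of a rise, for 25.5% of genes and, in that of a fall, for 53.1%.

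The median of all genes stood at -0.34 on the log2 scale, and list medians below are to be read against it. List counts below are to be read against the 20.4% of all genes called higher and the 46.1% called lower. RPKM is a share of the library, and the split of calls followed the scaling. With quantile normalization 3536 genes were higher and 3711 lower (48.8% of calls higher, against 30.7% without it), and with median-ratio scaling 3651 and 3802 (49.0%). Fold changes are on the log2(RPKM + 1) scale throughout, ± their SE, and understate the change of low genes.

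**Figure D1:**
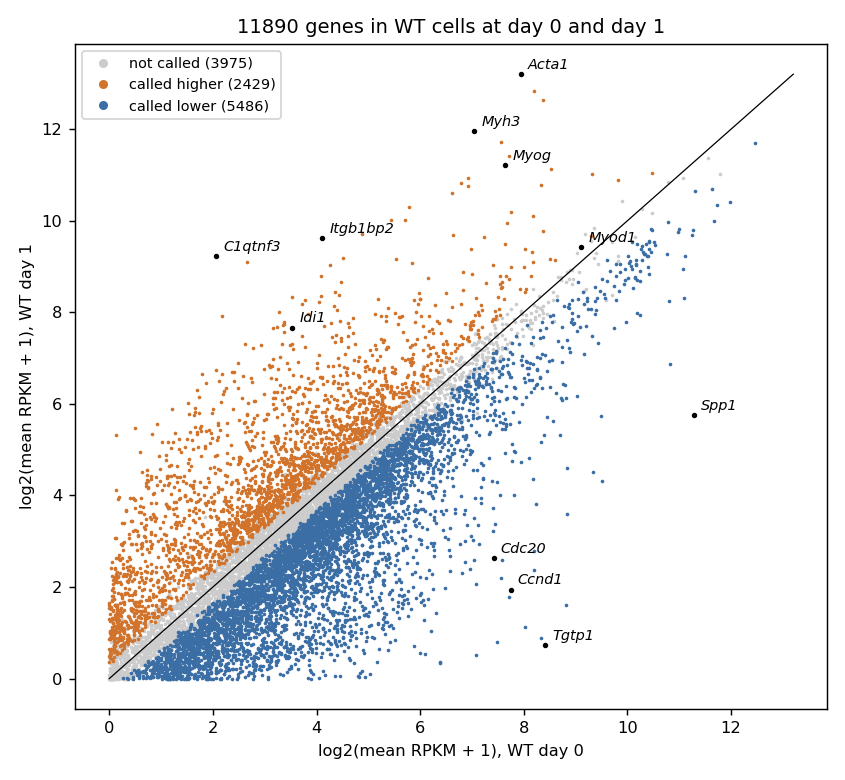
Each point is a gene, placed by log2 of its mean RPKM plus 1 at WT day 0 (horizontal) and WT day 1 (vertical), with the 2429 genes called higher in orange, the 5486 called lower in blue and the 3975 not called in grey, and the line marking equal levels. Muscle genes such as Acta1 and Myh3 sit at the top, and Tgtp1, Ccnd1 and Spp1 lie furthest under the line among the genes labelled in the plot.

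Of the transcription factors that set the myogenic programme, Myog, Myf6 and Mef2c rose, while Myod1 and Myf5 were not called. Myog was measured at 214 and 182 RPKM at day 0 and 2362 and 2377 RPKM at day 1 (log2 fold change 3.58 ± 0.28, adjusted p = 9.74e-08). Both day 1 libraries lay far above both day 0 libraries, which were close to each other. Myf6 (MRF4), the factor of maturing fibres, was near the limit at day 0 with 0.777 and 0.499 RPKM and reached 14.0 and 22.7 RPKM (log2 fold change 3.53 ± 0.23, adjusted p = 2.11e-08).

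Mef2c, which works with Myog on muscle promoters, stood at 15.2 and 3.51 RPKM at day 0 and 198 and 179 RPKM at day 1 (log2 fold change 4.47 ± 0.38, adjusted p = 2.44e-07). The 2 day 0 libraries differed from each other by several fold, yet both lay far below day 1. Mef2a and Mef2d, its relatives, rose less (log2 fold changes 2.24 and 1.90), and so did Tead4, a DNA-binding partner of the Hippo pathway that acts in myogenesis (3.31). Mef2a, Mef2d and Tead4 were chosen after their values were seen.

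By contrast Myod1, the factor that gives the cells their muscle identity, was at 552 and 552 RPKM at day 0 and 579 and 788 RPKM at day 1 (log2 fold change 0.29 ± 0.22, adjusted p = 0.259), and the libraries of day 1 were both above those of day 0 by less than the test required. With median-ratio or quantile scaling, under which the median of all genes was -0.02 and -0.03, Myod1 was called higher (log2 fold changes 0.69 and 0.62). Myf5, the other early factor, was at 16.2 and 11.3 RPKM at day 0 and 16.1 and 23.3 RPKM at day 1 (log2 fold change 0.49 ± 0.44, adjusted p = 0.339), with overlapping groups. The same gene fell in the mutants, with a log2 fold change of -2.72 in TKO and -1.87 in QKO, and the difference between WT and the mean of the mutants was 2.78 (adjusted p = 0.00404).

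The fusion proteins rose together with Myog. Myomaker (Tmem8c in the table, now Mymk), which makes myoblast membranes fusion-competent, was at 61.8 and 46.5 RPKM at day 0 and 1315 and 1219.8 RPKM at day 1 (log2 fold change 4.54 ± 0.21, adjusted p = 1.32e-09). Myomerger (Gm7325 in the table, now Mymx), its partner that opens the fusion pore, was at 20.1 and 16.8 RPKM at day 0 and 248 and 184 RPKM at day 1 (log2 fold change 3.48 ± 0.43, adjusted p = 8.48e-06). In both genes the day 1 libraries were far above the day 0 libraries. Klhl41, a sarcomere-stabilizing protein also needed for myofibril assembly, and Cav3, the muscle caveolin, rose as well (log2 fold changes 4.37 and 3.82). Of the 31 tested genes listed as myogenic regulators and fusion genes, 21 were called higher, 6 lower and 4 were not called, with a median of 1.52 against -0.34 for all genes. Among the falling ones were Six4, Eya1, Pitx3, the membrane protein gene Myof and Ckap2l, a spindle gene. Without WT day 1 replicate 1 only 3 were called lower.

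**Figure D2:**
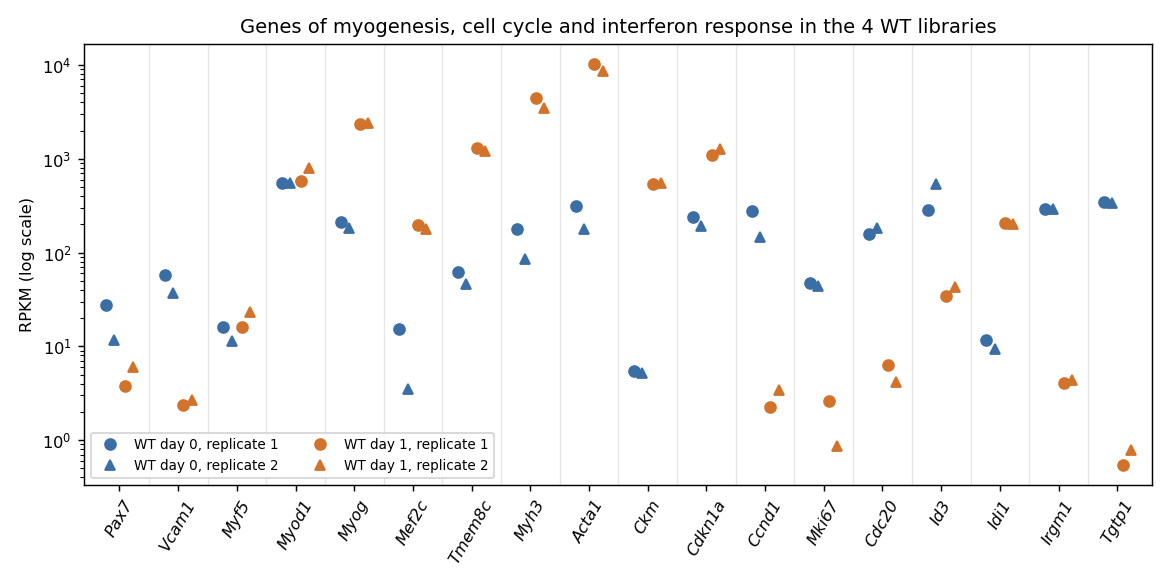
RPKM on a log axis of 18 genes in the 4 WT libraries, blue for day 0 and orange for day 1, circles for replicate 1 and triangles for replicate 2. Myod1 and Myf5 sit level between the days, Myog, Tmem8c, Myh3, Acta1, Ckm and Idi1 rise, and Ccnd1, Mki67, Cdc20, Irgm1 and Tgtp1 fall by more than the libraries of a day differ.

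The sarcomere genes gave the largest gains in level. Acta1, skeletal muscle actin, went from 312 and 177 RPKM to 10233 and 8574 RPKM (log2 fold change 5.31 ± 0.29, adjusted p = 6.36e-09) and was the most abundant of the named genes at day 1. Actc1, cardiac actin, which skeletal muscle uses in development, stood at 362 and 226 RPKM at day 0 and 7718 and 6894 RPKM at day 1 (log2 fold change 4.67 ± 0.26, adjusted p = 7.66e-09). Myh3, the embryonic myosin heavy chain that is the first to appear in new fibres, was at 178 and 84.5 RPKM at day 0 and 4426 and 3506 RPKM at day 1 (log2 fold change 4.99 ± 0.33, adjusted p = 2.47e-08). In all of them the day 1 libraries were far above the day 0 libraries, of which replicate 2 was the lower.

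Regulatory chains of the thick and thin filaments moved on the same scale. The myosin light chains Mylpf, Myl4 and Myl1 had log2 fold changes of 4.27, 4.17 and 4.02 and reached 6943 and 5802, 3908 and 2781 and 1664 and 1459.8 RPKM. Among the troponins, which make filaments respond to calcium, the slow and cardiac form Tnnc1 rose from 218 and 201 to 3045 and 2369.8 RPKM and the fast form Tnnc2 from 52.0 and 50.4 to 1023 and 1043 RPKM (log2 fold changes 3.68 and 4.31). Tnni1, Tnnt2 and Tnnt3 rose by 4.04, 4.01 and 3.84. Slow, fast and cardiac forms were thus all present at day 1, with Tnnc1 above Tnnc2 in both libraries.

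Other myosins followed Myh3 at lower levels. Fast Myh1 was at 12.4 and 4.94 RPKM at day 0 and 301 and 208 RPKM at day 1 and perinatal Myh8 at 17.1 and 4.30 RPKM at day 0 and 179 and 111 RPKM at day 1 (log2 fold changes 4.81 and 3.86). Slow Myh7 was at 14.8 and 3.52 RPKM at day 0 and 227 and 88.2 RPKM at day 1 (log2 fold change 4.08 ± 1.08, adjusted p = 0.00441), with the 2 day 1 libraries well apart, and without WT day 0 replicate 2 it was not called (3.18, adjusted p = 0.0751). Myh7 and its neighbour Myh6, which was at 1.11 and 0.386 RPKM at day 0 and 27.2 and 11.99 RPKM at day 1, were the 2 myosins whose change in WT was furthest from that of the mutants. In TKO and QKO, Myh7 had log2 fold changes of -0.75 and -1.05 and Myh6 of -0.17 and -0.75, and the differences were 4.98 (adjusted p = 0.0229) and 3.95 (adjusted p = 0.0162). Neither difference was called without WT day 0 replicate 2 (4.08, adjusted p = 0.158, and 3.64, adjusted p = 0.0712) or without WT day 1 replicate 1 (4.30, adjusted p = 0.117, and 3.39, adjusted p = 0.0931), and that of Myh7 was not called without TKO day 1 replicate 1 (4.67, adjusted p = 0.0508).

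Genes of the Z-disc and M-band, where thin and thick filaments are anchored, moved nearly as a block. Of 46 tested, 38 were called higher and 2 lower, with a median of 3.08 in WT (2.07 in TKO, 2.12 in QKO). The alpha-actinin Actn2, which cross-links actin at the Z-disc, was at 40.5 and 16.0 RPKM at day 0 and 923 and 759 RPKM at day 1 (log2 fold change 4.98 ± 0.31, adjusted p = 1.53e-08), and Ldb3, which binds it, at 11.5 and 4.36 RPKM at day 0 and 206 and 196 RPKM at day 1 (log2 fold change 4.62 ± 0.27, adjusted p = 9.76e-09). Myom2 of the M-band rose from 8.01 and 2.22 to 161 and 154 RPKM and the actin filament nucleators Lmod2 and Lmod3 from 6.85 and 1.73 and from 19.3 and 11.7 RPKM to 124 and 80.4 and to 301 and 293 RPKM. None of these groups overlapped. Of the 11 myosin heavy chains tested 8 were higher and 2 lower, of 17 actins and myosin light chains 12 and 2, and of 18 troponins and tropomyosins 11 and 4, with medians of 3.12, 1.63 and 2.77.

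Cytoplasmic actin went the other way. Actg1, the gamma actin of the cytoskeleton of dividing cells, was at 2089 and 2202 RPKM at day 0 and 427 and 556 RPKM at day 1 (log2 fold change -2.14 ± 0.18, adjusted p = 2.16e-07), and the days were well separated. Vim, the intermediate filament of myoblasts, was at 2917 and 3840.5 RPKM at day 0 and 1103 and 1477 RPKM at day 1 (log2 fold change -1.39 ± 0.201, adjusted p = 3.72e-05). Acta2, smooth muscle actin, which myoblasts also express early in differentiation, was at 316 and 418 RPKM at day 0 and 2209 and 2248 RPKM at day 1 (log2 fold change 2.61 ± 0.19, adjusted p = 5.78e-08).

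**Figure D3:**
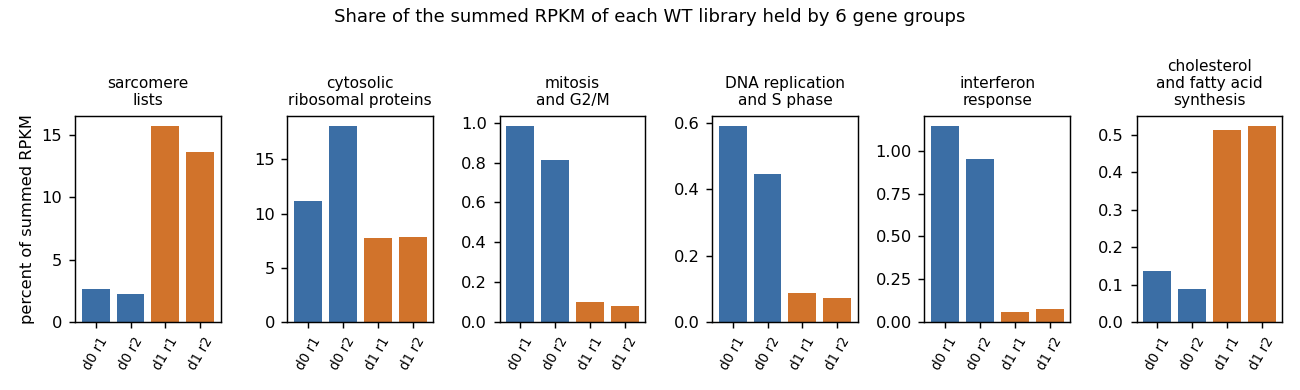
Bars give the percent of the summed RPKM of each WT library (2 of day 0 in blue, 2 of day 1 in orange) held by 6 gene groups, each panel with its own axis from 0. The sarcomere lists (101 genes) rise from 2.68% and 2.26% to 15.7% and 13.6%, the mitosis, replication and interferon groups shrink, and the ribosomal protein share differs between the day 0 libraries (11.2% and 18.1%).

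These genes together took a growing share of the RNA. The 101 genes of the 4 sarcomere lists held 2.68% and 2.26% of the summed RPKM at day 0 and 15.7% and 13.6% at day 1, and Acta1 alone 0.0789% and 0.0341% and then 2.55% and 2.16%. In bulk samples a smaller number of cells of one kind and less RNA per cell cannot be told apart, so the shares describe the culture and not the single cell.

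The genes for calcium release and uptake rose with those of the sarcomere. Of 35 tested genes of excitation-contraction coupling, 26 were higher and 1 lower, with a median of 2.14. Atp2a1 (SERCA1), the calcium pump of the sarcoplasmic reticulum, was at 23.1 and 13.1 RPKM at day 0 and 523 and 520.4 RPKM at day 1 (log2 fold change 4.83 ± 0.29, adjusted p = 1.09e-08), and Casq2, the calcium store protein, at 31.9 and 11.98 RPKM at day 0 and 651 and 516 RPKM at day 1 (log2 fold change 4.81 ± 0.36, adjusted p = 6.84e-08). Trdn (triadin), which links the store to the release channel, rose from 1.06 and 0.744 to 51.1 and 41.3 RPKM, and Srl (sarcalumenin) and Tmem38a, a potassium channel of the same membrane, by 4.94 and 4.46 on the log2 scale. All of these were without overlap between the days.

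Genes of the site where the nerve will contact the fibre were mostly higher. Chrng, the fetal subunit of the acetylcholine receptor, was at 95.7 and 130.3 RPKM at day 0 and 451 and 488 RPKM at day 1 (log2 fold change 2.06 ± 0.17, adjusted p = 1.69e-07), beside 1.87 in TKO and 2.14 in QKO, a difference of 0.05 ± 0.21. Erbb3, a neuregulin receptor, rose from 8.32 and 3.06 to 93.4 and 93.4 RPKM. Agrn, the agrin that clusters receptors, was at 31.4 and 36.2 RPKM at day 0 and 2.13 and 2.24 RPKM at day 1 (log2 fold change -3.45 ± 0.19, adjusted p = 5.51e-09), and Etv4 and Etv5, Ets factors of the fibroblast growth factor response, fell to 0.619 and 0.444 and to 1.68 and 1.75 RPKM from 36.1 and 45.5 and from 26.8 and 14.0 RPKM. Of 17 genes, 11 were higher and 3 lower, the 3 being Agrn, Etv4 and Etv5.

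The dystrophin complex, which ties the cytoskeleton to the matrix, was split. Of 25 genes 12 were higher and 7 lower, with a median of 0.44, which was 1.13 without WT day 0 replicate 1 and 0.12 without WT day 0 replicate 2. The syntrophin Sntb1 rose from 11.7 and 3.37 to 116 and 107 RPKM. The membrane repair genes on the same list parted. Dysf (dysferlin) and Trim72 (MG53) rose (log2 fold changes 3.30 and 3.22), and Anxa1, an annexin that gathers at membrane wounds, was at 643 and 786 RPKM at day 0 and 50.8 and 54.1 RPKM at day 1 (log2 fold change -3.74 ± 0.28, adjusted p = 6.87e-08).

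Muscle energy genes were led by creatine kinase. Ckm, muscle creatine kinase, which buffers ATP, was at 5.48 and 5.22 RPKM at day 0 and 539.9 and 547 RPKM at day 1 (log2 fold change 6.42 ± 0.46, adjusted p = 5.36e-08), with the libraries of each day nearly equal. The brain form Ckb also rose, from 13.3 and 13.3 to 262 and 232 RPKM. Pygm, which breaks down glycogen, was at 12.7 and 8.29 RPKM at day 0 and 342 and 299 RPKM at day 1 (log2 fold change 4.83 ± 0.203, adjusted p = 9.45e-10), and Pgam2, the muscle form of a glycolytic mutase, and Fabp3, a fatty acid carrier, rose by 4.20 and 4.26 on the log2 scale. Of 35 genes 19 were higher and 8 lower, or 5 lower without WT day 1 replicate 1, with a median of 1.16.

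Respiration itself moved little. Of 53 oxidative phosphorylation genes 5 were higher and 1 lower, with a median of -0.01, which is above the median of all genes. This result turned on the day 0 libraries: without WT day 0 replicate 1, 3 were higher and 30 lower (median -0.53), and without replicate 2, 32 and 0 (median 0.46). The highest changes were in the complex I subunits Ndufa9, at 58.3 and 78.9 RPKM at day 0 and 112 and 116 RPKM at day 1, and Ndufs1, at 56.6 and 47.4 RPKM at day 0 and 79.9 and 83.0 RPKM at day 1.

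Some of the largest rises were outside these lists. C1qtnf3, a secreted protein of the C1q and TNF family, had the largest rise of the genes named, from 4.53 and 1.81 to 712 and 481 RPKM (log2 fold change 7.22 ± 0.37, adjusted p = 3.97e-09), and rose less in TKO (3.005) and QKO (3.74). Itgb1bp2 (melusin), an integrin-binding protein of striated muscle, was at 20.7 and 11.8 RPKM at day 0 and 831 and 738 RPKM at day 1 (log2 fold change 5.56 ± 0.26, adjusted p = 1.68e-09), Bex1 at 4.82 and 2.20 RPKM at day 0 and 265 and 218 RPKM at day 1, and Padi2, which converts arginine to citrulline in proteins, at 0.121 and 0.0804 RPKM at day 0 and 48.0 and 29.4 RPKM at day 1. Asb2, part of a ubiquitin ligase that clears filamins in differentiating muscle, Prkag3, the muscle subunit of AMP-activated kinase, and Tmem182, a muscle membrane protein, rose by 4.85, 4.60 and 4.80. In every one of these the day 1 libraries lay far above those of day 0.

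Proliferation genes fell as a body. All 82 tested genes of mitosis and G2/M were called lower and none higher, with a median of -3.54 in WT (-3.64 in TKO, -3.27 in QKO), and of 63 genes of DNA replication and S phase 61 were lower and none higher, with a median of -2.83. Mki67, the antigen of cycling cells, was at 47.9 and 43.4 RPKM at day 0 and 2.59 and 0.872 RPKM at day 1 (log2 fold change -4.17 ± 0.47, adjusted p = 3.44e-06). Cdc20, which activates the ligase that ends metaphase, was at 158 and 182 RPKM at day 0 and 6.28 and 4.12 RPKM at day 1 (log2 fold change -4.80 ± 0.37, adjusted p = 9.88e-08), and the mitotic kinase Plk1 at 69.3 and 62.6 RPKM at day 0 and 2.68 and 1.42 RPKM at day 1 (log2 fold change -4.49 ± 0.299, adjusted p = 2.71e-08). In each, both day 1 libraries lay far below both day 0 libraries.

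The other leading falls covered each phase. Top2a, which untangles chromosomes, fell from 138 and 82.5 to 5.52 and 2.40 RPKM, the cyclin Ccnb1 from 80.0 and 59.8 to 3.17 and 1.53 RPKM and the kinetochore gene Nuf2 from 40.2 and 46.2 to 1.63 and 0.692 RPKM. The replicative helicase subunits Mcm3 and Mcm6, the methylation maintenance factor Uhrf1 and thymidine kinase Tk1 fell (log2 fold changes -4.36, -4.02, -4.35 and -4.14). Mitosis genes held 0.983% and 0.810% of the summed RPKM at day 0 and 0.101% and 0.0796% at day 1.

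Many promoters of mitotic genes carry a cell cycle homology region, TTTGAA, on which a repressor complex sits in quiescent cells. Windows around it, 1 for each gene, are shown for 5 of the 6 mitosis genes with the largest falls among those that held it, from RefSeq promoter sequences (250 bases before to 50 after the start, build GRCm38.p6), with the element or its reverse complement TTCAAA in capitals. The choice of this list and of Cenpa and Hmgb2 was made after their values were seen.
Cdc20, chr4:118437347-118437370, minus strand: cagttgggtTTTGAAggagccaat
Top2a, chr11:99024198-99024221, minus strand: agataaaggTTCAAAtgaaactag
Plk1, chr7:122159456-122159479, plus strand: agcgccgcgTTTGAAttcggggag
Cenpa, chr5:30666893-30666916, plus strand: gggtgatttTTTGAActgctggcg
Hmgb2, chr8:57511804-57511827, plus strand: ctctccgggTTTGAAtaatcctcc

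Both strands were searched. The element was found in 42 of the 67 mitosis genes with a promoter in the table (62.7%) and in 11.8% of the promoters of all genes tested, 9626 of 11890 of which had one. CCAAT, the site of NFY, was in 46 of the 67 (68.7%) against 39.7% of all, and the Cdc20 window holds both, with no overlap of the letters. A match describes these letters and not a bound site. The same count for all genes with at least a 4-fold rise or fall is void, because only 75.9% and 78.4% of them had a promoter in the table.

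Single genes that drive or brake the G1 phase changed strongly, while their list was split. Ccnd1, cyclin D1, which carries mitogen signals into the cell cycle, was at 279 and 148 RPKM at day 0 and 2.28 and 3.40 RPKM at day 1 (log2 fold change -5.75 ± 0.35, adjusted p = 1.26e-08), and its kinases Cdk6 and Cdk4 fell as well (log2 fold changes -2.90 and -2.30, Cdk4 chosen after its value was seen). Cdkn1a (p21), the inhibitor that Myod1 induces at cell cycle exit, was at 238 and 192 RPKM at day 0 and 1086 and 1262 RPKM at day 1 (log2 fold change 2.45 ± 0.19, adjusted p = 1.19e-07). Cdkn1c (p57) was at 6.16 and 4.503 RPKM at day 0 and 45.1 and 60.8 RPKM at day 1 (log2 fold change 3.09 ± 0.399, adjusted p = 1.35e-05), and Rb1, the retinoblastoma protein that keeps the exit irreversible, rose from 15.9 and 8.40 to 59.7 and 67.1 RPKM.

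For Cdkn1c, an imprinted gene of the cluster next to that of H19, the rise was smaller than in the mutants, where it was 4.72 in TKO and 5.63 in QKO (difference -2.09, adjusted p = 0.0126, or -1.88, adjusted p = 0.0719, without WT day 1 replicate 1). At day 0 Cdkn1c was at 15.0 and 34.0 RPKM in TKO and 5.54 and 4.70 RPKM in QKO, and at day 1 at 234 to 691 RPKM in these mutants. Of the 29 genes of the list for cell cycle exit, 7 were higher and 8 lower, with a median of -0.10 (-0.22 to -0.007 without single WT day 1 libraries). Of 26 targets of p53, to which Cdkn1a also belongs, 6 were higher and 13 lower, close to the 20.4% and 46.1% of all genes. Trp53 itself was at 87.3 and 107 RPKM at day 0 and 19.1 and 20.4 RPKM at day 1 (log2 fold change -2.24 ± 0.14, adjusted p = 1.86e-08).

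Growth genes followed the cell cycle downwards. Myc, which drives ribosome production, was at 45.8 and 35.5 RPKM at day 0 and 6.53 and 4.73 RPKM at day 1 (log2 fold change -2.65 ± 0.27, adjusted p = 1.28e-06), and Npm1, the abundant nucleolar chaperone, at 914 and 1093 RPKM at day 0 and 216 and 225 RPKM at day 1 (log2 fold change -2.17 ± 0.16, adjusted p = 6.38e-08). Of 39 ribosome biogenesis and Myc-type genes 34 were lower and 3 higher (1 higher without WT day 1 replicate 1), with a median of -1.23. Ptma (prothymosin), a chromatin protein of proliferating cells, fell from 1565 and 2049 to 105 and 126 RPKM.

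Of 64 cytosolic ribosomal protein genes 60 were lower and none higher, with a median of -1.02. Rps2 was at 1832 and 3035 RPKM at day 0 and 785 and 853 RPKM at day 1 and Rpsa at 1029.5 and 1697 RPKM at day 0 and 456 and 461 RPKM at day 1, with day 0 replicate 2 well above replicate 1. The count depended on that library, and without WT day 0 replicate 2 only 31 were lower (median -0.43), and with median-ratio scaling 23 were (median -0.61). Ribosomal protein genes are short, and the length slope between the day 0 libraries described above moves with them. With the length trend removed 48 of 62 were lower (median -0.54). In the fit of the 6 WT libraries 18 of 64 were called, and in that of the 4 libraries compared 7.

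Enzymes that make serine and glycine for growth were among the falls. Phgdh, the first enzyme of serine synthesis, was at 284 and 362 RPKM at day 0 and 38.3 and 32.0 RPKM at day 1 (log2 fold change -3.16 ± 0.197, adjusted p = 1.53e-08). Shmt2 was at 120.2 and 173 RPKM at day 0 and 24.9 and 23.7 RPKM at day 1 and Mthfd2 at 72.1 and 72.1 RPKM at day 0 and 18.4 and 13.4 RPKM at day 1. Of 39 genes of the amino acid and integrated stress response, 23 were lower and 8 higher, against 46.1% and 20.4% of all genes. With median-ratio scaling 17 were lower and 10 higher. Among those that rose was Slc7a11, the cystine transporter, at 1.92 and 0.819 RPKM at day 0 and 11.3 and 10.7 RPKM at day 1 (log2 fold change 2.38 ± 0.66, adjusted p = 0.00614), against 0.11 in TKO and -1.07 in QKO (difference 2.86, adjusted p = 0.0315).

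Genes of the undifferentiated state were called lower about as often as genes at large. Pax7, the master factor of MuSCs, was at 27.6 and 11.7 RPKM at day 0 and 3.75 and 6.03 RPKM at day 1 (log2 fold change -1.72 ± 0.31, adjusted p = 2.83e-04), and Vcam1, the adhesion protein by which MuSCs are sorted, at 57.6 and 37.0 RPKM at day 0 and 2.37 and 2.67 RPKM at day 1 (log2 fold change -3.75 ± 0.21, adjusted p = 8.35e-09). The syndecans Sdc4 and Sdc3, matrix co-receptors of MuSCs, fell to 11.1 and 10.9 and to 8.23 and 9.52 RPKM from 127 and 99.99 and from 73.9 and 55.4 RPKM. The groups did not overlap, though the 2 day 0 libraries differed more than 2-fold for Pax7.

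Ncam1, counted among MuSC markers but also made by young fibres, rose from 22.9 and 14.3 to 193 and 156 RPKM. Of 22 MuSC marker genes 10 were lower and 5 higher, against 46.1% and 20.4% of all genes, with a median of -0.35 (-0.22 without WT day 0 replicate 1) beside -0.34 for all genes. In TKO and QKO the median was -1.34 and -0.85.

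The Id genes, inhibitors of the myogenic factors and targets of BMP signalling, were all lower. Id3 was at 286 and 541 RPKM at day 0 and 34.1 and 43.2 RPKM at day 1 (log2 fold change -3.32 ± 0.28, adjusted p = 2.62e-07) and Id1 at 179 and 270.1 RPKM at day 0 and 28.5 and 31.8 RPKM at day 1 (log2 fold change -2.82 ± 0.25, adjusted p = 3.96e-07). Id2 was at 136 and 152 RPKM at day 0 and 16.0 and 18.4 RPKM at day 1 (log2 fold change -2.99 ± 0.203, adjusted p = 3.12e-08). The days were far apart in all of them. Of 23 genes of the Id and BMP list 12 were lower and 3 higher, the higher ones being the receptors Bmpr1a and Bmpr2 and Chrd (chordin), which binds BMPs outside the cell and was at 0.733 and 0.899 RPKM at day 0 and 14.1 and 17.0 RPKM at day 1. With the falls of Smad6 and Smad7, inhibitors that BMP signalling induces, and of Bmp1, a protease that cleaves chordin (-2.65), the list held members with opposing roles.

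Notch signalling, which keeps MuSCs undifferentiated, showed no common direction, with 4 of 17 genes higher and 3 lower, against 20.4% and 46.1% of all genes. Hes1, a Notch target, was at 23.7 and 22.5 RPKM at day 0 and 13.2 and 10.9 RPKM at day 1 (log2 fold change -0.88 ± 0.25, adjusted p = 0.00688), but without WT day 1 replicate 2 it was not called (-0.76, adjusted p = 0.0561), nor under median-ratio (-0.50, adjusted p = 0.0806) or quantile scaling (-0.55, adjusted p = 0.0617). Heyl, another target, rose from 0.268 and 0.341 to 6.83 and 7.90 RPKM, and Hes6, which opposes Hes1, from 127 and 179 to 395 and 397 RPKM. Lfng, which modifies Notch receptors, fell (log2 fold change -2.49). Without WT day 0 replicate 1 the counts were 5 higher and 5 lower, and without replicate 2, 4 and 6.

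**Figure D4:**
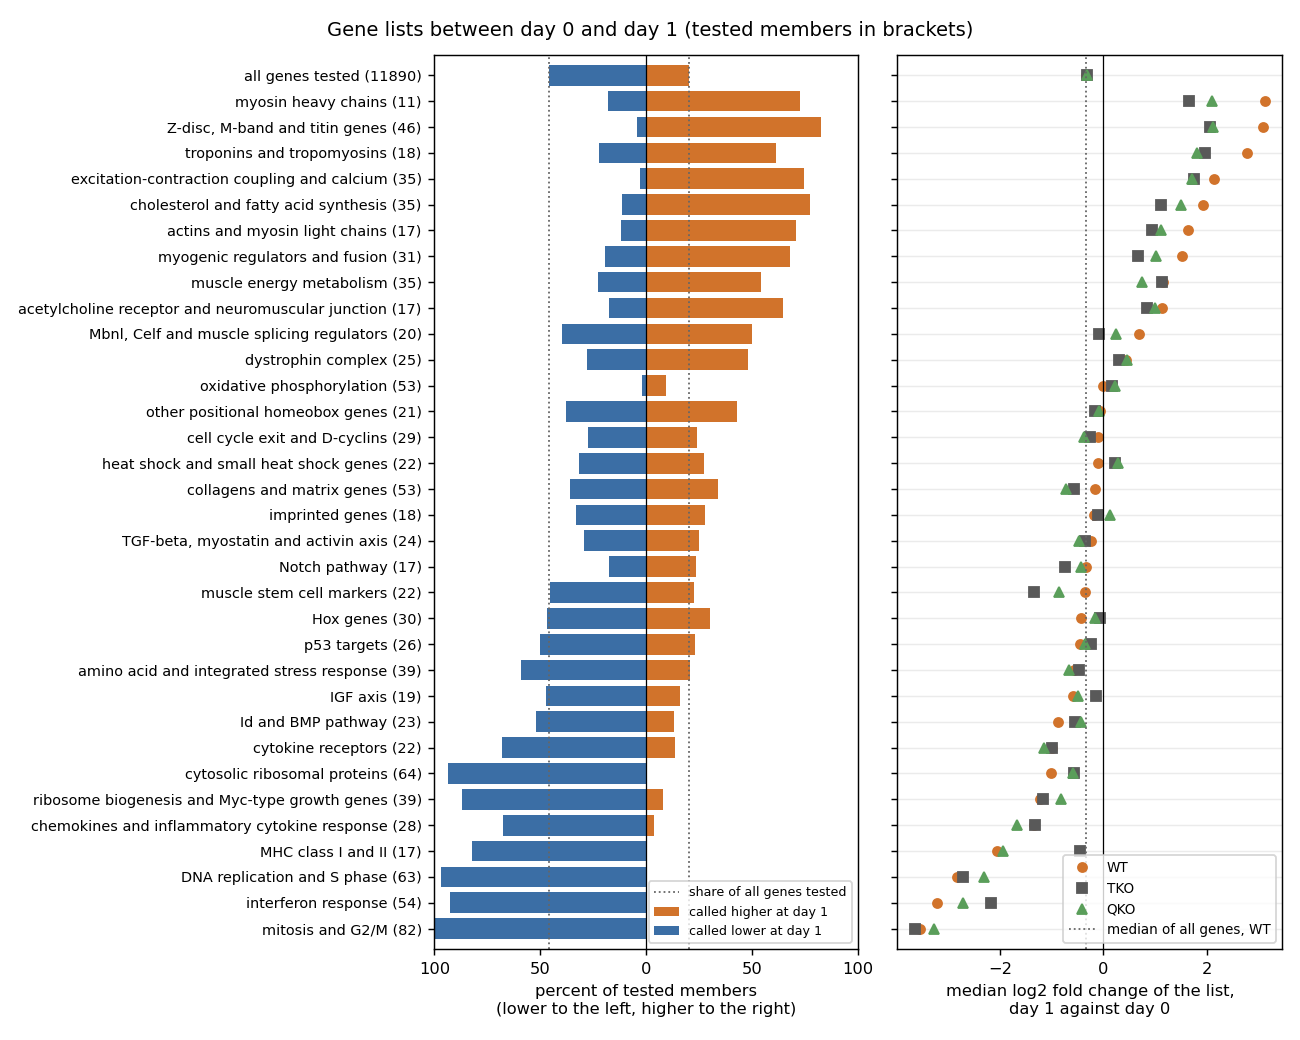
Left, the percent of tested members of each gene list called lower (blue, to the left) and higher (orange, to the right) at WT day 1, with dotted lines at the shares of all genes tested (46.1% and 20.4%). Right, the median log2 fold change of each list in WT, TKO and QKO. Myosin heavy chains (3.12), Z-disc, M-band and titin genes (3.08) and troponins and tropomyosins (2.77) lie furthest to the right in WT. Mitosis, interferon and replication genes lie furthest to the left in all 3 genotypes.

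The strongest falls of single genes were those of the interferon response, the set of genes that gamma and type I interferons switch on. Of 54 tested genes 50 were lower and none higher, with a median of -3.21 (-2.17 in TKO, -2.72 in QKO). Tgtp1, a GTPase that attacks the vacuoles of parasites, was at 342 and 338 RPKM at day 0 and 0.543 and 0.777 RPKM at day 1 (log2 fold change -7.69 ± 0.17, adjusted p = 4.72e-12), although reads can be shared with its near copy Tgtp2. Iigp1, of the same family, was at 521 and 372 RPKM at day 0 and 1.36 and 2.73 RPKM at day 1 (log2 fold change -7.21 ± 0.29, adjusted p = 5.81e-10). Irgm1, its regulator, was at 291 and 293 RPKM at day 0 and 4.04 and 4.36 RPKM at day 1 (log2 fold change -5.82 ± 0.19, adjusted p = 1.41e-10).

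In all of them the day 1 libraries were at a small fraction of the day 0 level. The guanylate-binding proteins Gbp2 and Gbp3 fell (log2 fold changes -6.91 and -5.45). The membrane protein Ifitm3, which hinders virus entry, fell from 519 and 776 to 16.8 and 26.5 RPKM. The interferon list held 1.14% and 0.949% of the summed RPKM at day 0 and 0.0619% and 0.0753% at day 1.

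Most genes of antigen presentation, another branch of that response, fell with it. Of 17 MHC genes 14 were lower and none higher in WT, with 7 lower in TKO and 16 in QKO. The medians were -2.05 in WT, -0.45 in TKO and -1.94 in QKO. Summed over the list, 3730 and 5608 RPKM at day 0 became 2729 and 2959 RPKM at day 1. The class II genes named below held little of that sum. The class II genes, which professional antigen-presenting cells express and other cells acquire under gamma interferon, were measured at day 0. H2-Aa was at 18.2 and 23.4 RPKM at day 0 and 0 and 0.0682 RPKM at day 1 (log2 fold change -4.39 ± 0.14, adjusted p = 1.37e-10). H2-Ab1 was at 29.4 and 48.0 RPKM at day 0 and 1.09 and 0.827 RPKM at day 1 and Cd74, the invariant chain, at 28.1 and 30.1 RPKM at day 0 and 0.406 and 0.519 RPKM at day 1 (log2 fold change -4.37 ± 0.29, adjusted p = 2.39e-08). All were at about 1 RPKM or less at day 1. Of 14 immune markers 10 were under 1 RPKM in all 4 libraries, among them Ptprc, the marker of all leukocytes. Cd68, Itgam, Cd14 and Laptm5 were not. The immune list summed to 3.98 and 5.93 RPKM at day 0 and 8.71 and 4.56 RPKM at day 1, and the part of leukocytes was not tested. H2 genes resemble each other and reads may be split between them.

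Cd74 and H2-Aa moved less in the mutants, where they were lower than in WT already at day 0. At day 0 H2-Aa was at 0.39 and 0.38 RPKM in TKO and 6.08 and 4.67 RPKM in QKO. Cd74 was at 1.06 and 0.588 RPKM in TKO and 7.06 and 3.73 RPKM in QKO. For Cd74 the log2 fold change was -0.503 in TKO and -2.21 in QKO and the difference from WT -3.01 (adjusted p = 1.20e-04), and for H2-Aa it was -0.34 and -2.60 with a difference of -2.92 (adjusted p = 4.05e-07), which was not called in the count model on recovered reads (-4.24, adjusted p = 0.0616). Of the 54 interferon genes 23 changed more to the negative side in WT than in the mutants and 2 to the positive side, against 6.61% and 8.33% of all genes.

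Secreted signals of inflammation shared the direction. Of 28 chemokine and cytokine response genes 19 were lower and 1 higher. Csf1, the macrophage growth factor, was at 197 and 182 RPKM at day 0 and 5.34 and 4.67 RPKM at day 1 (log2 fold change -4.99 ± 0.33, adjusted p = 2.68e-08). Cxcl10, an interferon-induced chemokine, was at 16.5 and 12.1 RPKM at day 0 and 0.0942 and 0.0331 RPKM at day 1. Cxcl12, the ligand of Cxcr4, was at 35.1 and 25.7 RPKM at day 0 and 0.676 and 1.08 RPKM at day 1. Of 22 cytokine receptors 15 were lower and 3 higher. Il4ra and Il13ra1, which pair as an interleukin receptor, fell (log2 fold changes -2.38 and -2.64), and Osmr, the oncostatin M receptor, from 6.14 and 6.01 to 0.0874 and 0.319 RPKM.

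Most genes of lipid synthesis rose. Of 35 tested genes for cholesterol and fatty acid synthesis 27 were higher and 4 lower, with a median of 1.92 (1.11 in TKO, 1.504 in QKO), and their share of the summed RPKM went from 0.136% and 0.0882% to 0.511% and 0.523%. Idi1, which isomerizes the isoprene building block, was at 11.7 and 9.35 RPKM at day 0 and 205 and 199 RPKM at day 1 (log2 fold change 4.14 ± 0.24, adjusted p = 9.26e-09). Hmgcs1, at the head of the pathway, was at 17.4 and 13.9 RPKM at day 0 and 133 and 131 RPKM at day 1 (log2 fold change 3.01 ± 0.19, adjusted p = 1.54e-08). Cyp51, a demethylase of lanosterol, was at 10.6 and 10.9 RPKM at day 0 and 96.3 and 100.4 RPKM at day 1 (log2 fold change 3.08 ± 0.19, adjusted p = 1.72e-08). The libraries of a day agreed closely and the days did not overlap.

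Scd1, which desaturates fatty acids, rose from 1.40 and 0.629 to 34.6 and 34.8 RPKM. The 4 that fell, Fasn, Acaca, Elovl6 and Fads1, belong to the making, lengthening and desaturation of fatty acids and not to the sterol branch. Under quantile or median-ratio scaling, and in the fit of the 4 libraries compared, only 2 of the list were called lower. Fewer were also called lower without WT day 0 replicate 1 or WT day 1 replicate 1.

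The extracellular matrix list was split. Of 53 genes 18 were higher and 19 lower, with a median of -0.15 (-0.03 without WT day 0 replicate 1, -0.08 without WT day 1 replicate 1), although the share of the list in the summed RPKM fell from 1.02% and 0.729% to 0.286% and 0.262%, mostly through Spp1. Spp1 (osteopontin), a secreted adhesion protein of inflamed and regenerating muscle, was at 2510.1 and 2455 RPKM at day 0 and 59.0 and 47.1 RPKM at day 1 (log2 fold change -5.53 ± 0.61, adjusted p = 3.22e-06). Tnc (tenascin C), a matrix protein of regenerating tissue, was at 174 and 99.2 RPKM at day 0 and 13.9 and 4.68 RPKM at day 1 (log2 fold change -3.85 ± 0.45, adjusted p = 5.63e-06). Col18a1, a basement membrane collagen, was at 138 and 121 RPKM at day 0 and 4.40 and 5.56 RPKM at day 1. The laminin Lamb1 was at 84.8 and 61.8 RPKM at day 0 and 6.30 and 7.37 RPKM at day 1.

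Among secreted regulators of growth, Tgfb3 was at 12.7 and 7.71 RPKM at day 0 and 163 and 147 RPKM at day 1 (log2 fold change 3.83 ± 0.22, adjusted p = 8.35e-09). Mstn (myostatin), which limits muscle size, was at 2.15 and 0.816 RPKM at day 0 and 13.1 and 23.9 RPKM at day 1 (log2 fold change 2.97 ± 0.39, adjusted p = 1.66e-05). Igf1, which promotes it, was low throughout, at 0.0746 and 0.0368 RPKM at day 0 and 3.19 and 2.75 RPKM at day 1 (log2 fold change 1.91 ± 0.29, adjusted p = 5.27e-05). Of 24 genes of the TGF-beta, myostatin and activin axis 6 were higher and 7 lower, against 20.4% and 46.1% of all genes.

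Several small heat shock proteins, which protect the Z-disc and filaments of muscle, rose. Hspb7 was at 0.561 and 0.269 RPKM at day 0 and 50.9 and 35.3 RPKM at day 1 (log2 fold change 4.95 ± 0.35, adjusted p = 4.89e-08). Hspb3 was at 2.37 and 1.95 RPKM at day 0 and 59.1 and 51.9 RPKM at day 1 and Hspb2 at 17.1 and 21.0 RPKM at day 0 and 309 and 248 RPKM at day 1. Cryab (alpha-B crystallin) and Hspb1 rose from 89.0 and 106 and from 119 and 180.5 RPKM to 918 and 732 and to 814 and 788 RPKM. They were 5 of the 6 called higher on a list of 22, of which 7 were lower, the other being Hsph1, a call that was lost without WT day 0 replicate 2 (0.08, adjusted p = 0.582) or WT day 1 replicate 1 (0.29, adjusted p = 0.256).

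RNA-binding proteins that set muscle splicing were split. Ptbp1, a repressor of muscle exons in myoblasts, was at 133 and 123 RPKM at day 0 and 19.0 and 25.7 RPKM at day 1 (log2 fold change -2.48 ± 0.15, adjusted p = 1.04e-08). Hnrnpa1 was at 564 and 710.1 RPKM at day 0 and 168 and 187 RPKM at day 1 and Celf4 at 9.23 and 8.58 RPKM at day 0 and 0.572 and 0.801 RPKM at day 1. Rbfox1, an activator of muscle exons, rose from 0.985 and 0.483 to 12.4 and 8.83 RPKM and Celf2 from 21.4 and 6.33 to 49.6 and 55.3 RPKM. Of 20 genes 10 were higher and 8 lower, with a median of 0.69 (-0.09 in TKO, 0.25 in QKO). The median was 1.23 without WT day 0 replicate 1 and 0.039 without WT day 0 replicate 2. Splicing itself was not analysed here.

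The genes mutated in the other genotypes were measured in intact form in WT. Dmpk, the kinase whose message carries the myotonic dystrophy repeat in patients, was at 237 and 341 RPKM at day 0 and 330.0 and 395 RPKM at day 1 (log2 fold change 0.34 ± 0.19, adjusted p = 0.123), with overlapping libraries, and it was called higher without WT day 0 replicate 2 (0.60, adjusted p = 0.0103) and under median-ratio (0.74) and quantile scaling (0.43). Six5, its neighbour, was low and fell from 2.26 and 3.39 to 0.710 and 0.882 RPKM (log2 fold change -1.08 ± 0.16, adjusted p = 5.95e-05). Dmwd, on its other side, was at 64.8 and 81.1 RPKM at day 0 and 52.5 and 51.7 RPKM at day 1. Its log2 fold change was -0.47 ± 0.17 (adjusted p = 0.0285). Leaving out WT day 0 replicate 2 (-0.31), WT day 1 replicate 1 (-0.48) or WT day 1 replicate 2 (-0.46) lost the call. Dmwd was also not called under median-ratio (-0.07, adjusted p = 0.707) or quantile scaling (-0.33, adjusted p = 0.0779). The same held with the length trend removed (-0.07, adjusted p = 0.703). Nor was Dmwd called in the fits of the 4 libraries compared (adjusted p = 0.121) and the 6 WT libraries (adjusted p = 0.0812). Mbnl1, the splicing factor, was at 18.9 and 7.23 RPKM at day 0 and 10.3 and 11.1 RPKM at day 1 (log2 fold change -0.13 ± 0.299, adjusted p = 0.716), with the day 0 libraries on either side of day 1. It was called higher without WT day 0 replicate 1 (0.50, adjusted p = 0.0411) and lower without WT day 0 replicate 2 (-0.77, adjusted p = 0.00524).

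Most large changes were seen in all genotypes. Of the 544 genes with at least a 4-fold rise in WT, 484 (89.0%) were called higher in both TKO and QKO, and of the 858 with at least a 4-fold fall 819 (95.5%) were called lower in both. Over all calls the shares were 55.9% of the 2429 higher and 69.0% of the 5486 lower genes, which are 88.2% and 87.1% of those called in both mutants. In the mutants 15.8% (TKO) and 15.4% (QKO) of all genes were higher and 42.1% and 42.4% lower.

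The change in WT was then set against the mean change of TKO and QKO in the same fit. It differed for 1777 genes (14.9%), 991 of them to the positive side. Against TKO alone 1111 genes (9.34%) differed and against QKO alone 1304 (11.0%). Without single WT libraries the count ran from 859 to 4708. Of the muscle lists, 23 of 46 Z-disc, M-band and titin genes, 15 of 31 myogenic regulators and 15 of 35 genes of excitation-contraction coupling were on the positive side and none on the negative, against 8.33% and 6.61% of all genes. Of 35 genes of muscle energy metabolism 15 were positive and 1 negative, and of 17 genes of the acetylcholine receptor and neuromuscular junction 3 and 1. For Myog the WT change exceeded that of the mutants by 1.95 (adjusted p = 0.00206), with log2 fold changes of 1.46 in TKO and 1.81 in QKO, and for Acta1 by 2.34 (adjusted p = 9.85e-04). In the mutants Myog was at 566 to 1085 RPKM at day 0, above WT, and at 1988 to 2702 RPKM at day 1, on either side of WT. The share of summed RPKM held by the sarcomere lists went in WT from 2.68% and 2.26% to 15.7% and 13.6%. In TKO it went from 3.83% and 4.44% to 15.7% and 15.7%, and in QKO from 4.21% and 3.61% to 14.5% and 13.3%. The levels at day 1 thus overlapped, and the starting shares of WT were below those of both mutants.

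**Figure D5:**
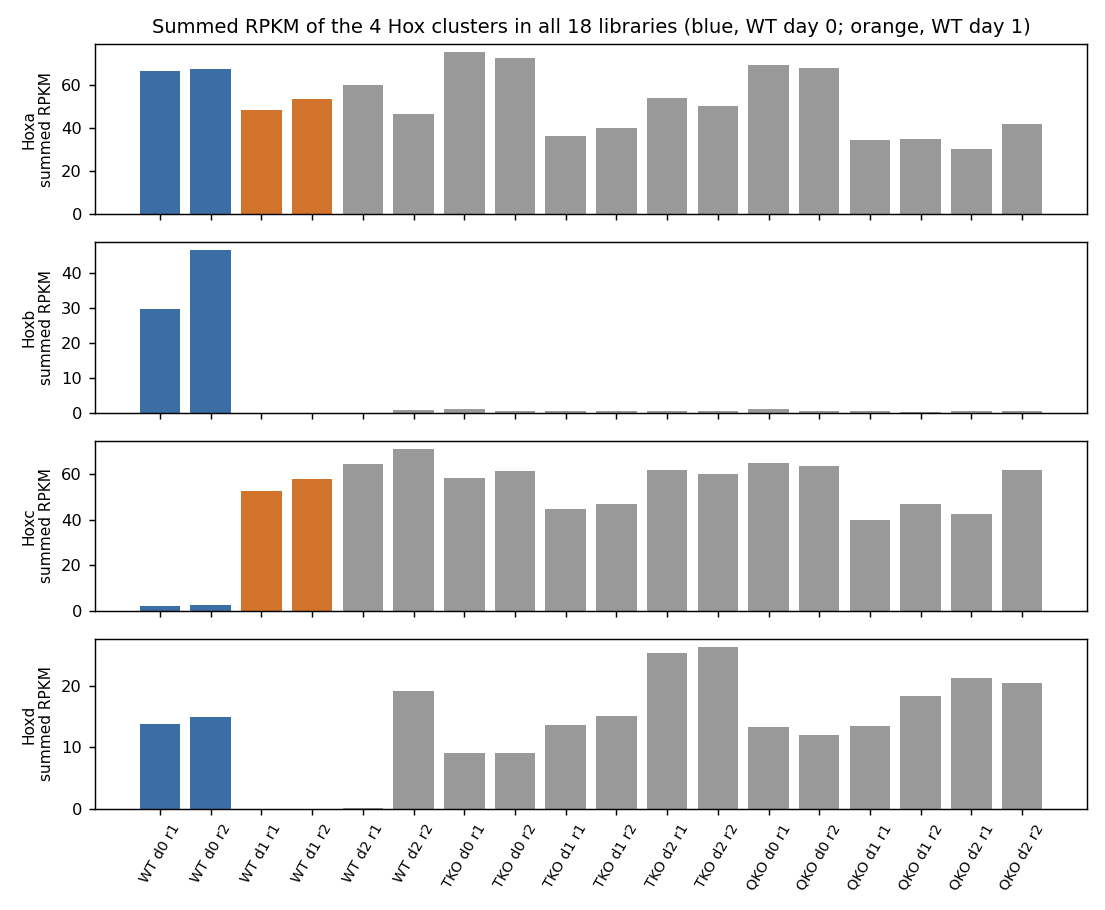
Summed RPKM of the Hoxa, Hoxb, Hoxc and Hoxd clusters in the 18 libraries, with the 2 WT day 0 libraries in blue, the 2 WT day 1 libraries in orange and the others in grey, each panel with its own axis from 0. Hoxb is high in the WT day 0 libraries only, Hoxc is low in them only, and Hoxd is near 0 in both WT day 1 libraries and in WT day 2 replicate 1.

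The genes furthest from the mutants included Hox genes. All 6 tested Hoxb genes were at 10.2 and 17.5 RPKM (Hoxb2) or less at day 0 and at 0 in both day 1 libraries. With 3 reads per library as the floor, they were at least 57.6-fold (Hoxb6) to at least 680-fold (Hoxb3) higher at day 0. Outside the WT day 0 libraries the Hoxb sum was at most 0.96 RPKM, so these genes passed the filter only through WT day 0. The filter thus fixed their direction in WT and left little room for a call in the mutants. Of 9 Hoxc genes 7 were higher at day 1, led by Hoxc10 at 0.680 and 0.793 RPKM at day 0 and 20.6 and 20.5 RPKM at day 1 (log2 fold change 3.63 ± 0.16, adjusted p = 9.69e-10) and Hoxc6 at 0.214 and 0.610 RPKM at day 0 and 10.8 and 13.6 RPKM at day 1. For Hoxd the WT day 1 libraries were low, with sums of 0.02 and 0.04 RPKM against 13.8 and 14.9 RPKM at WT day 0. Over days 0 to 2 the mutants held 9.08 to 26.3 RPKM. Of the WT day 2 libraries, replicate 1 was at 0.25 RPKM and replicate 2 at 19.2 RPKM. All 4 Hoxd genes were lower in WT, Hoxd8 falling from 6.13 and 5.80 to 0.0243 and 0.0427 RPKM. In TKO and QKO, none of the Hoxd genes was called, nor any of the Hoxb genes, which were near the floor there.

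Other genes also fell further in WT than in the mutants. In WT Igf2bp3, a fetal RNA-binding protein, was at 25.5 and 19.1 RPKM at day 0 and 1.28 and 1.43 RPKM at day 1 (difference -3.16). Cd24a, a surface protein of progenitors, was at 118 and 130.4 RPKM at day 0 and 3.95 and 4.56 RPKM at day 1 (difference -3.02). Dynap, a membrane protein, was at 152 and 202 RPKM at day 0 and 0.318 and 1.18 RPKM at day 1. Its difference was -3.62, not called in the count model (-2.44, adjusted p = 0.147). At day 0 these genes were lower in TKO and QKO than in WT. There Igf2bp3 was at 0.448 to 0.863 RPKM, Cd24a at 2.19 to 18.9 RPKM and Dynap at 6.19 to 18.6 RPKM. On the positive side Lox, which cross-links collagen, was at 1.52 and 0.911 RPKM at day 0 and 6.24 and 6.16 RPKM at day 1 in WT. Lox fell in TKO (-2.29) and QKO (-2.07), where it was at 34.3 to 65.9 RPKM at day 0 and 9.26 to 13.7 RPKM at day 1. Tmem119, a membrane protein of bone-forming cells, was at 11.4 and 7.38 RPKM at day 0 and 88.7 and 71.5 RPKM at day 1 in WT. It did not rise in TKO and QKO (-0.91 and -0.71), where it was at 97.1 to 134 RPKM at day 0 and 54.3 to 72.0 RPKM at day 1. Both genes were thus lowest in the WT day 0 libraries. Whether such genes follow differentiation or the cultures that were sampled cannot be told apart here.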

How the data were processed

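RNA-seq libraries were made by the authors with TRIZOL extraction and a TruSeq kit and sequenced on an Illumina HiSeq X instrument. Per the labels and the methods, reads were aligned with HISAT2 2.0.5 to the protein-coding genes of GRCm38.p5 (from the submitters' processing notes) and quantified with StringTie, whose version is not given in the sources used here. The values used are the RPKM the authors deposited in 1 table of 22013 rows and 18 libraries. Where a symbol had several rows, 1401 rows below the one of highest mean were dropped. RPKM sets a gene's reads against its transcript length and the size of the library, so that a large rise of some genes lowers the others.

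Groups and replicate numbers came from the sample labels. A pseudocount of 1 was added and log2 taken. A linear model (limma 3.58.1, R 4.3.3) over all 18 libraries held 9 group means, which left 9 residual degrees of freedom, and variances were moderated by empirical Bayes (trend, robust), since each group holds 2 libraries. The contrasts were WT day 1 against day 0, the same in TKO and QKO, and WT less the mean of TKO and QKO. P-values were adjusted by Benjamini-Hochberg over the 11890 genes tested, with 0.05 as the threshold. The fit was tested on simulated data.

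RPKM values rise in steps of whole reads, from which read numbers, gene lengths and depth were recovered. Whole reads in every library came out for 16422 of the 16548 rows with 6 or more values above 0, within 0.02 reads (up to 0.1 for long transcripts), and for 0.0% of 1000 control rows moved at random. Of small numbers 61.9% were even, so both mates of a pair may have counted. Libraries held 34.8 to 60.7 M reads, which limits genes under about 1 RPKM.

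The comparison, the gene lists and the genes were chosen with earlier results of these data known, and 40 lists were used for description only. Genes were named by a rule: the 25 calls of largest change in each direction that reach a mean of 5 RPKM in the higher group, with no overlap and no clone or model name, the 12 largest gains and losses in RPKM, up to 5 called members of each list (2 by level where none passed), the 12 largest differences from the mutants each way and a fixed set of myogenic, cell cycle and targeted genes. Members named to complete a count, markers, Mef2a, Mef2d, Tead4, Cdk4, Cenpa and Hmgb2 were added with their values known. Some genes that the rule names are not reported here.

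The alternatives tried were a count model (limma voom) of the reads recovered, pseudocounts of 0.1 and 0.5, other filters, quantile and median-ratio scaling, removal of a trend with gene length (loess, span 0.5), plain moderation, a minimum change of 2-fold, all rows of repeated symbols, smaller fits, a replicate block, each mutant alone and leaving out each library, with the remaining library of that group taken to vary as those elsewhere do. Promoters of RefSeq (GRCm38.p6) were matched by symbol or older symbol. Tables were handled in pandas 2.3.3 and NumPy 2.4.6 under Python 3.11.15, and Matplotlib 3.10.9 drew the figures. WT and mutant day 2 libraries entered the fit. Beyond it only their Hox sums and some single levels are given.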

Additional observations from a re-analysis of the deposited data

Results flagged for a closer look

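The change from day 0 to day 1 differed between WT and the mean of TKO and QKO, by the test of that difference, for 1777 genes. Differences of named genes are given on the log2 scale, with the WT change less that of the mutants. On the positive side were Ccl7 (5.05), Myh7 (4.98), Krt18 (4.44), Hoxc10 (3.95), Myh6 (3.95), Lox (3.89), C1qtnf3 (3.85), Tmem119 (3.79), Hoxc6 (3.62), Pfn2 (3.60), Ccl11 (3.25), Arhgdib (3.20), Myf5 (2.78), Acta1 (2.34) and Myog (1.95). On the negative side were Dynap (-3.62), Hoxb2 (-3.57), Prr32 (-3.42), Fhl1 (-3.40), Igf2bp3 (-3.16), Hoxd8 (-3.05), Cd24a (-3.02), Cd74 (-3.01), Hoxb3 (-2.97), Serpina3f (-2.94), H2-Aa (-2.92) and Cdkn1c (-2.09).

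The differences came about in several ways. For the chemokines Ccl7 and Ccl11 and the keratin Krt18 the mutants fell and WT was already low at day 0, where Krt18 was at 0.197 and 0.422 RPKM, and the log2 fold change of Krt18 was -0.26 in WT, -5.44 in TKO and -3.97 in QKO. For the Hoxb genes WT fell and the mutants were level near the floor, with a Hoxb sum of at most 0.96 RPKM. Acta1, Myog and C1qtnf3 rose in all genotypes, from day 0 levels that were lower in WT to day 1 levels that overlapped. Cdkn1c also rose in all genotypes, but its day 1 levels were apart, at 45.1 and 60.8 RPKM in WT and 234 to 691 RPKM in the mutants. For Prr32 and Fhl1 the directions were opposite, Fhl1 changing by -1.09 in WT (adjusted p = 0.166, not called), 2.30 in TKO and 2.32 in QKO. Without WT day 0 replicate 2, WT day 1 replicate 1 or WT day 1 replicate 2 the differences of Fhl1 (-3.47, -3.47 and -3.34) and Hoxd8 (-3.08, -3.04 and -3.06) were not called, with adjusted p of 0.0507 to 0.0663. In the count model on recovered reads those of Krt18 (5.08), Ccl11 (7.67), Myh6 (5.86), Hoxd8 (-7.62), Dynap (-2.44), Serpina3f (-2.05) and H2-Aa (-4.24) were not called, with adjusted p of 0.0616 to 0.559. The WT day 0 and WT day 1 libraries enter each of these values, and their part was not tested. With 2 libraries a group no single library could be tested as far from the others.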

How the results depend on the processing

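The counts of WT day 1 against day 0 (2429 higher, 5486 lower) moved by over 1.5 times in the higher genes with the length trend removed (3807), with median-ratio scaling (3651) and with at least a 2-fold change (1309), and in the lower genes with a floor of 5 on the mean RPKM (3533, where fewer genes were tested) and with at least a 2-fold change (2859). Leaving out 1 WT library in turn gave 1986 to 2786 higher and 4573 to 5505 lower genes. In the fit of only the 4 libraries compared, 1780 were higher and 3942 lower, and the count model called 2412 and 5414 of 11789 genes. Genes without recovered reads, among them Acta1, Myh3 and Myog, could not enter the count model or the fit with the length trend removed.

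The 1777 genes that differed between WT and the mutants became 1184 in the count model, 1001 with that floor and 1111 against TKO alone (1304 against QKO alone). Leaving out 1 library gave 859 to 4708, with 4708 without WT day 0 replicate 1, 1103 without WT day 0 replicate 2, 859 without WT day 1 replicate 1 and 942 without WT day 1 replicate 2. The cause was not tested.

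Signs changed for a few values near 0. Mbnl1 (main -0.13) was 0.19 with quantile normalization, 0.23 with median-ratio scaling, 0.041 with the length trend removed and -0.77 to 0.50 without single WT libraries. Cd34 was 0.11 and Krt18 0.19 with the length trend removed, and Itga7 was -0.057 to 0.45 without single WT libraries. The median of the cell cycle exit list was 0.27 with the length trend removed, 0.29 with median-ratio scaling and 0.20 with quantile normalization, that of oxidative phosphorylation 0.42, 0.39 and 0.14, and -0.53 to 0.46 without single WT libraries, and that of the matrix list 0.11 with the length trend removed and 0.020 with quantile normalization. Of the values of 159 named genes in WT, 2749 kept direction and call under an alternative, 19 lost the call, 10 gained it and 7 changed sign, and of the 27 named differences 613 kept it and 19 lost it.

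Whether replicate numbers pair the samples is not known. Deviations of same-numbered day 0 and day 1 libraries correlated at 0.06 in WT, 0.20 in TKO and 0.06 in QKO. These values cannot decide it, since in WT the day 0 libraries differ with gene length and the day 1 libraries do not. With the replicate block 2443 genes were higher, 5512 lower and 1900 differed from the mutants.

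The 2 libraries a group and the WT day 0 libraries, which differ from each other with gene length and from all others in Hox genes, limit the precision. Genes at 0 or near 1 read have folds set by the pseudocount.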
